A study of Homo sapiens with 16 samples.

Results

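The genes described here make, carry, bind and break down retinoic acid. They were taken as the rows of the deposited count table whose Ensembl identifiers map to CYP26A1, CYP26B1, DHRS3, DHRS9, RDH10, RDH11, CRABP1, CRABP2, ALDH1A2 and STRA6, which gave 10 genes of the 62700 in the table. All libraries came from OCI-AML3, an established cell line grown from an acute myeloid leukemia, and all measure RNA by sequencing. Untreated cells gave 4 libraries. The other 4 groups had 3 libraries each and were collected after 3 h with 0.1 µM ATRA, with 0.1 µM AM80, or with either retinoid plus 2 inhibitors, GSK-LSD1 at 0.1 µM and MB3 at 100 µM. ATRA is all-trans retinoic acid, the natural ligand of the retinoic acid receptors, and AM80 (tamibarotene) is a synthetic retinoid that prefers the RARA receptor. GSK-LSD1 blocks the histone demethylase LSD1, and MB3 blocks the histone acetyltransferase GCN5. No group received the inhibitors without a retinoid, so their effect on these genes was read only beside ATRA or AM80, and the 2 inhibitors cannot be told apart. The methods name no vehicle control, so effects of a compound and of its vehicle cannot be told apart against untreated cells. One cell line was used, and neither the labels nor the methods state that replicates were separate cultures, so p-values measure the spread between these libraries, which may be technical.

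Vitamin A enters cells as retinol, and membrane receptors such as STRA6 carry it across. Retinol dehydrogenases such as RDH10 and DHRS9 turn retinol into retinal, and ALDH1A enzymes such as ALDH1A2 oxidize retinal irreversibly to retinoic acid. DHRS3 runs the first step backwards and returns retinal to retinol, and the related RDH11 is also known to reduce retinal. CRABP1 and CRABP2 bind retinoic acid in the cytoplasm, and CYP26A1 and CYP26B1 hydroxylate it so that it can be cleared. CYP26A1 is a textbook target of the retinoic acid receptors, which sit on DNA as dimers with RXR at paired half-sites.

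The table held between 11963898 and 33789718 reads per library, and AM80 replicate 2 was the deepest. Values are normalized counts, that is, reads divided by the size factor of the library. The 14643 genes that averaged 10 or more normalized counts across all 16 libraries were tested with limma on log2(normalized count + 1). A gene was said to have risen or fallen when its Benjamini-Hochberg adjusted p was under 0.05 and its fold was above 1.5. Of the 10 genes, 8 passed the filter, while ALDH1A2 and CRABP1 did not, and CYP26A1, CYP26B1 and CRABP2 passed it only through treated libraries. The cells had reads of 8 of 8 myeloid markers, with a summed level between 26533 and 35213 normalized counts per library. T cell and red cell markers had at most 2 reads in any library. Epithelial, hepatocyte and stromal markers had at most 9, 5 and 4 reads. In bulk RNA, more cells that express a gene and more RNA per cell cannot be told apart.

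Sequence near the start sites of the 4 genes that rose with the retinoids is shown first, with matches to half-sites marked. Whether a match is bound by a receptor or acts on the gene was not tested. Windows of 250 bases before and 50 after each start site came from RefSeq (GRCh38.p14), and 9 of the 10 genes had one. They were searched on both strands for 4 half-sites, namely AGGTCA with its variant AGTTCA along with GGGTCA with its variant GGTTCA, and for pairs of them in the same direction with 5 bases between (DR5), the classic element of the retinoic acid receptors. CYP26A1 was the only one of the 9 genes with a DR5. Its copy spans chr10:93073803-93073819, from 90 to 74 bases before the start site at 93073893, and reads on the minus strand. In the GENCODE 29 annotation these 17 bases also fall in the 5′ UTR exon of a longer CYP26A1 transcript (93073475 to 93073834). The site is printed with 6 bases on either side (chr10:93073797-93073825, plus strand), and capitals mark the half-sites.
CYP26A1: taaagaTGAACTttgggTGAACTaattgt
Among all 35116 RefSeq windows, 31 held a DR5, which is 0.0883%. Pairs with 2 bases between (DR2) were in 0.0399% of windows and pairs with 1 base (DR1) in 0.131%, and no window of the 9 genes held either.

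Upstream sequence of the other 3 genes follows, from the outermost RefSeq start site and outside every annotated exon of the gene. It is given on the minus strand, on which all 3 genes lie, at chr1:12618211-12618460 for DHRS3, chr2:72148039-72148112 for CYP26B1 and chr15:74212268-74212509 for STRA6. Capitals mark single half-sites on either strand.
DHRS3: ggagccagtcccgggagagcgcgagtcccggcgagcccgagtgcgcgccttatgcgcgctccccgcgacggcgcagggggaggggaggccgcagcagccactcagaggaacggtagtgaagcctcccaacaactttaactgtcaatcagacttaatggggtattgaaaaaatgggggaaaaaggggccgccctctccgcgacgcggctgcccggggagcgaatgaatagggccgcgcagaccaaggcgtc
CYP26B1: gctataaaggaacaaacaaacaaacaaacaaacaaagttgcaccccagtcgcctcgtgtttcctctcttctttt
STRA6: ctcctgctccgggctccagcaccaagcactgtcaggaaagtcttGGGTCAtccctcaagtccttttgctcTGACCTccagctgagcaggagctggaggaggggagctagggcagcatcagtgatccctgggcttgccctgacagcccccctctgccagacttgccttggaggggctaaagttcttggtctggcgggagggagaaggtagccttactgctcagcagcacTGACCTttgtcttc
STRA6 held 3 single half-sites in its stretch, and the stretches of DHRS3 and CYP26B1 held 0. The DHRS3 stretch lies before the start site at 12618210, which is outside the gene span used here, ending at 12617731. Windows at the inner DHRS3 start sites did hold single half-sites. These were GGTTCA at chr1:12616956-12616961 (start site 12616789) and AGGTCA at chr1:12596779-12596784 (start site 12596613). STRA6 also held AGGTCA at chr15:74208173-74208178 (start site 74208054). A single half-site is common, since 38.6% of all windows and 8 of the 20 windows of these genes held at least 1. An element outside these windows would not be seen.

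Both breakdown enzymes were at or near 0 reads in untreated cells and were expressed in every treated group. CYP26A1 (ENSG00000095596.12, chromosome 10, 93073475 to 93077890, plus strand, GRCh38) had 0 reads in each of the 4 untreated libraries, which allows up to 3 reads over the group. It had 114, 120 and 119 normalized counts with ATRA, and 98.4, 86.5 and 106 with AM80. With ATRA and inhibitors it had 53.7, 46.7 and 55.7, and with AM80 and inhibitors 57.0, 50.9 and 70.8. Every treated library lay above every untreated one, and every library with a retinoid alone lay above every library with inhibitors. Taking 3 reads over the untreated group as the floor, CYP26A1 was at least 138-fold higher with ATRA and at least 111-fold higher with AM80. The bound was 60.8-fold for ATRA with inhibitors and 69.6-fold for AM80 with inhibitors. These bounds use the size factors. Scaled to total reads, they were 137 for ATRA and 107 for AM80 alone, and 54.9 (ATRA) and 61.3 (AM80) with inhibitors. Limma gave adjusted p-values of 3.16e-17 with ATRA and 5.89e-17 with AM80 alone, and of 6.08e-16 (ATRA) and 3.12e-16 (AM80) in the inhibitor groups. In that fit the untreated value of CYP26A1 is set by the 1 added to each count, and the gene was tested only through treated libraries. Under other settings its log2 difference with ATRA ran from 4.61 to 9.94, so no support is read from these p-values. CYP26A1 shares 750 bases of exon with AL358613.3 on the same strand, which had 1 read over all libraries.

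CYP26B1 (ENSG00000003137.9, chromosome 2, 72129238 to 72148038, minus strand), the second enzyme of the family in the list, had 1 read in untreated replicate 4 and 0 in the other untreated libraries. With ATRA its 3 libraries held 545, 619 and 552 normalized counts, and with AM80 they held 404, 326 and 436. Added inhibitors gave 151, 120 and 143 beside ATRA, and 110, 126 and 124 beside AM80. The order of the group means was ATRA, AM80, ATRA with inhibitors, AM80 with inhibitors and untreated, and the libraries of the 2 inhibitor groups overlapped while all other neighbours in this order did not. Against the single untreated read, the ratio was 2004 with ATRA (95% counting interval 359 to 79210), 1331 with AM80 (239 to 52591), 485 with ATRA and inhibitors (86.6 to 19217) and 418 with AM80 and inhibitors (74.4 to 16557). The intervals are exact binomial and cover counting error only. Scaled to total reads, the ratios were 2000, 1278, 438 and 368 in the same order. Limma gave adjusted p-values of 5.20e-18, 1.37e-17, 3.61e-16 and 4.93e-16 in the same order. In that fit the untreated value of CYP26B1 is set largely by the 1 added to each count, and the gene was tested only through treated libraries. Its log2 difference with ATRA ran from 6.78 to 10.7 under other settings, so no support is read from these p-values either.

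CYP26C1, the remaining member of the family, was far lower. It had 0 untreated reads, 13 reads over the 3 ATRA libraries and 8 over the AM80 libraries. With inhibitors it had 3 reads beside ATRA and 1 beside AM80. All groups except ATRA were at the floor of 3 reads or fewer in every library, and no fold is given. It was under the filter and had no test.

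DHRS3 (ENSG00000162496.9, chromosome 1, 12567910 to 12617731, minus strand), which returns retinal to retinol, was expressed at a low level in untreated cells and rose in all 4 treatments. Its untreated libraries held 25.1, 18.5, 32.4 and 33.2 normalized counts. ATRA brought it to 2283, 2394 and 2342, and AM80 to 2494, 2254 and 2527. With inhibitors it had 1757, 1369 and 1679 beside ATRA, and 1641, 1726 and 1662 beside AM80. All treated libraries stood above the untreated range, and those of ATRA and AM80 overlapped each other. The fold on the log2(normalized count + 1) scale was 84.8 with ATRA (log2 difference 6.41, 95% interval 6.12 to 6.69, adjusted p = 1.07e-18 from limma). It was 87.8 with AM80 (6.46, interval 6.17 to 6.74), 57.7 with ATRA and inhibitors (5.85, interval 5.57 to 6.13) and 60.7 with AM80 and inhibitors (5.92, interval 5.64 to 6.21).

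STRA6 (ENSG00000137868.19, chromosome 15, 74179466 to 74212267, minus strand), the retinol transporter, rose less and from a low level. Untreated libraries had 20.9, 11.1, 22.4 and 19.9 normalized counts. ATRA libraries had 88.7, 109 and 95.8, and AM80 libraries had 67.8, 84.4 and 81.7. With ATRA and inhibitors the values were 24.4, 13.04 and 36.4, and with AM80 and inhibitors 28.5, 34.4 and 24.5. The retinoid libraries lay wholly above the untreated ones, whereas 1 library of ATRA with inhibitors lay inside the untreated range and 2 above it, and those of AM80 with inhibitors lay just above it. The fold was 5.18 with ATRA (log2 difference 2.37, interval 1.81 to 2.93, adjusted p = 6.36e-07 from limma) and 4.14 with AM80 (2.05, interval 1.49 to 2.61, adjusted p = 4.69e-06 from limma). With inhibitors, AM80 left STRA6 1.57-fold above untreated cells (adjusted p = 0.0455 from limma), and this call was lost under 7 of 11 other settings, edgeR (adjusted p = 0.0684) and DESeq2 (adjusted p = 0.0812) included, and in 9 of 16 fits that left out 1 library. Those were untreated replicate 2, AM80 with inhibitors replicates 1 and 2, ATRA with inhibitors replicate 1, AM80 replicates 1 and 3 and each of the ATRA libraries, with adjusted p-values between 0.0508 and 0.166 from limma. For ATRA with inhibitors the fold was 1.25 (log2 difference 0.32, interval -0.24 to 0.88, adjusted p = 0.314 from limma), and the log2 difference was -0.0073 without replicate 3 of that group and 0.70 without its replicate 2, where it passed (adjusted p = 0.0248 from limma). The 2 inhibitor groups themselves did not differ by the test in STRA6 (adjusted p = 0.553 from limma). STRA6 shares 540 bases of exon with CCDC33 on the other strand, and whether reads were counted by strand is not given in the sources used here. CCDC33 itself had 21 reads over the ATRA libraries, 17 with AM80, 2 in untreated cells and 3 and 4 with inhibitors.

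**Figure D1:**
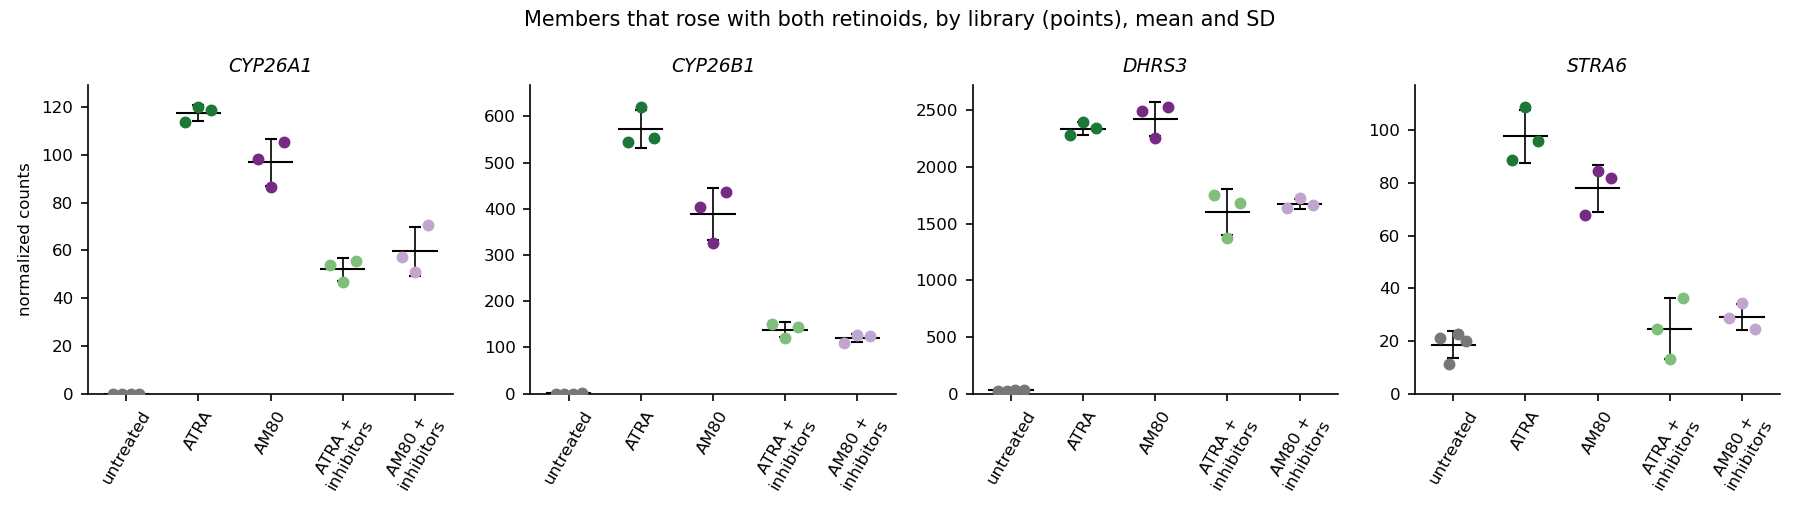
Normalized counts (y axis, linear, from 0) of CYP26A1, CYP26B1, DHRS3 and STRA6 in each library by group; points are libraries, horizontal lines group means and bars SD (n = 4 untreated, n = 3 in each treated group). CYP26A1, CYP26B1 and DHRS3 stand above untreated cells in every treated library, and STRA6 stands above them with a retinoid alone.

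In all, 4 of the 8 tested genes rose with ATRA (CYP26A1, CYP26B1, DHRS3 and STRA6) where 6.52% of all tested genes did, and 0 fell where 2.94% did. The same 4 rose with AM80, where 6.41% of all tested genes rose and 3.76% fell, and 0 of these genes fell. With inhibitors, 3 rose with ATRA (background 14.2%) and 4 with AM80 (background 12.9%), with 0 falls in either (background 14.8% and 13.1%). CYP26A1 and CYP26B1 were tested only because of the treated libraries in which they are high, so nothing is read from these counts against the background. The comparisons with untreated cells share the 4 untreated libraries.

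**Figure D2:**
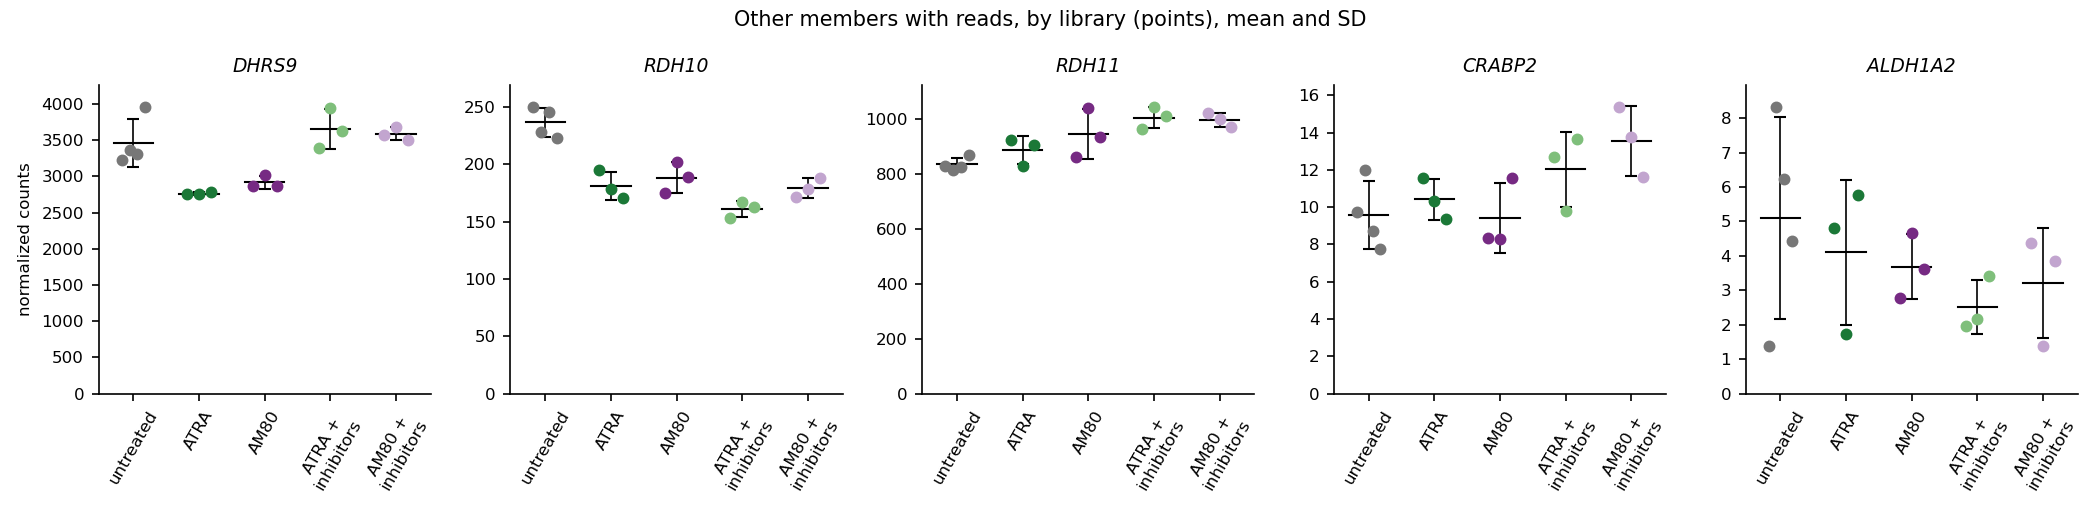
Normalized counts (y axis, linear, from 0, a separate scale per gene) of DHRS9, RDH10, RDH11, CRABP2 and ALDH1A2 in each library; points are libraries, lines group means and bars SD. DHRS9, RDH10 and RDH11 move by less than 1.5-fold between any treated group and untreated cells, and CRABP2 and ALDH1A2 stay near the limit of detection.

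The 3 other enzymes that convert retinol and retinal were already expressed in untreated cells, and none of them passed the fold limit in any comparison. DHRS9 (ENSG00000073737.17, chromosome 2, 169064789 to 169096167, plus strand) had 3228, 3369, 3307 and 3954 normalized counts in untreated libraries, with replicate 4 highest. It had 2751, 2753 and 2782 with ATRA, 2869, 3025 and 2869 with AM80, 3388, 3950 and 3627 with ATRA and inhibitors, and 3573, 3688 and 3508 with AM80 and inhibitors. All libraries of both retinoids alone lay below all untreated ones, and those with inhibitors lay within the untreated range. The log2 difference from untreated cells was -0.32 with ATRA (interval -0.47 to -0.18, adjusted p = 0.00134 from limma) and -0.24 with AM80 (interval -0.39 to -0.10, adjusted p = 0.0112 from limma). On adding the inhibitors it was 0.40 beside ATRA (adjusted p = 0.000163) and 0.30 beside AM80 (adjusted p = 0.00307), both from limma.

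RDH10 (ENSG00000121039.10, chromosome 8, 73294612 to 73325281, plus strand), the retinol dehydrogenase needed in the embryo, was highest in untreated cells with 250, 228, 245 and 223 normalized counts. With ATRA it had 195, 179 and 171, with AM80 175, 202 and 189, with ATRA and inhibitors 153, 167 and 163, and with AM80 and inhibitors 171, 179 and 188. Untreated libraries lay above all treated ones. The log2 difference from untreated cells was -0.38 with ATRA and -0.33 with AM80 alone, and -0.55 (ATRA) and -0.40 (AM80) in the inhibitor groups, with adjusted p-values from limma between 2.92e-05 and 0.00951. All 4 were under the fold limit, the largest being 1.46-fold lower. With libraries scaled to total reads, RDH10 fell with ATRA and inhibitors (-0.70, or -0.55 relative to the median of all tested genes). RDH10 shares 278 bases of exon with RDH10-AS1 on the other strand, which had at most 17 reads in a group.

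RDH11 (ENSG00000072042.13, chromosome 14, 67676801 to 67695814, minus strand), which also reduces retinal, had 830, 816, 825 and 869 normalized counts in untreated cells. Treated libraries ranged from 828 to 925 with ATRA, 861 to 1040 with AM80, 965 to 1042 with ATRA and inhibitors and 971 to 1021 with AM80 and inhibitors. RDH11 shares 346 bases of exon with AL049779.1 on the same strand, which had at most 9 reads in a group. The inhibitor groups lay wholly above untreated cells, by a log2 difference of 0.27 with ATRA (adjusted p = 0.00231 from limma) and 0.26 with AM80 (adjusted p = 0.00367 from limma). With ATRA alone the difference was 0.08 (interval -0.06 to 0.23) and with AM80 alone 0.17 (interval 0.03 to 0.32), and neither passed the test.

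The binding proteins and the retinal dehydrogenase in the list were scarce. CRABP1 (ENSG00000166426.8) had 0 reads in all 16 libraries. CRABP2 (ENSG00000143320.9), which hands retinoic acid to the receptor, had between 7 and 16 reads per library and group means between 9.40 and 13.6 normalized counts. Its libraries overlapped between all neighbouring groups, and its log2 differences from untreated cells lay between -0.02 with AM80 and 0.47 with AM80 and inhibitors (interval -0.08 to 1.03), none of which passed. ALDH1A2 (ENSG00000128918.15) had between 1 and 9 reads per library and group means between 2.51 and 5.09 normalized counts, under the filter, and a change was not detectable at this depth.

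Per kilobase of exon, which allows levels of different genes to be compared, DHRS9 led in untreated cells with 924 ± 88.4 normalized counts per kb (SD, n = 4), followed by RDH11 with 151 ± 4.24 and RDH10 with 44.4 ± 2.45. DHRS3 had 8.99 ± 2.28, CRABP2 8.69 ± 1.66 and STRA6 2.42 ± 0.66. After ATRA, DHRS3 reached 771 ± 18.3 per kb (SD, n = 3), beside 736 ± 4.75 for DHRS9, so that the retinal-reducing DHRS3 stood at 1.05 ± 0.03 times the level of DHRS9 (SD, n = 3). In untreated cells that ratio was 0.0097 ± 0.0022 (SD, n = 4). With inhibitors it was 0.55 ± 0.11 beside ATRA and 0.58 ± 0.01 beside AM80 (SD, n = 3 each). Exon lengths came from GENCODE 29 and do not show which transcript was expressed.

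Levels with inhibitors were set against those with the same retinoid alone. Beside ATRA, CYP26A1, CYP26B1 and STRA6 fell, which is 3 of the 8 tested genes where 11.4% of all tested genes fell, and 0 rose where 8.15% did. Beside AM80, again CYP26A1, CYP26B1 and STRA6 fell, 3 of 8 where 8.90% of all tested genes did, and 0 rose where 6.81% did. Since CYP26A1 and CYP26B1 were tested only because of treated libraries in which they are high, nothing is read from these counts against the background. CYP26B1 kept 24.2% of its ATRA level (95% interval 17.5% to 33.4%, adjusted p = 4.39e-07 from limma) and 31.2% of its AM80 level (22.6% to 43.1%, adjusted p = 5.86e-06 from limma). STRA6 kept 24.1% (15.9% to 36.5%, adjusted p = 8.49e-06) and 38.0% (25.1% to 57.5%, adjusted p = 0.00061), both from limma. CYP26A1 kept 44.7% of its ATRA level (33.7% to 59.1%, adjusted p = 5.99e-05 from limma) and 61.5% of its AM80 level (46.5% to 81.4%, adjusted p = 0.0069 from limma). DHRS3 kept more, with 68.1% (55.2% to 84.0%, adjusted p = 0.00368) and 69.2% (56.1% to 85.4%, adjusted p = 0.00638), both from limma, and stayed just under the fold limit. Percentages are on the log2(normalized count + 1) scale and are shares of the whole level, not of the rise over untreated cells. STRA6 averaged 18.6 normalized counts in untreated cells beside 97.7 with ATRA and 78.0 with AM80, whereas CYP26B1 averaged 0.277 in untreated cells. The intervals of DHRS3 and CYP26B1 do not overlap beside either retinoid. Those of DHRS3 and CYP26A1 overlap beside both, and those of DHRS3 and STRA6 overlap beside AM80 but not beside ATRA.

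The call for DHRS3 turned on the scaling. With libraries scaled to total reads it fell beside ATRA (log2 difference -0.70) and beside AM80 (-0.65), where the median of all tested genes was itself -0.16 and -0.13, so that relative to that median DHRS3 stood at -0.54 and -0.52. It also passed with quantile normalization, at -0.67 and -0.65. Without replicate 1 of ATRA with inhibitors its difference beside ATRA was -0.63 and without replicate 3 it was -0.59, and both passed. CYP26A1 beside AM80 kept its call under 10 of 12 other settings. The call was lost with quantile normalization, at -0.54, and under the rule of adjusted p under 0.01 and fold above 2, at -0.70.

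Per kilobase, CYP26B1 stood above CYP26A1 in every treated library, but the ratio of the 2 enzymes differed between groups. It was 2.84, 3.06 and 2.75 with ATRA and 2.43, 2.23 and 2.45 with AM80. With inhibitors it was 1.67, 1.52 and 1.52 beside ATRA, and 1.14, 1.47 and 1.03 beside AM80. No library of one group overlapped with another group in this ratio, which was computed after the levels were known. In the 4 comparisons made (each retinoid with against without inhibitors, and AM80 against ATRA with and without them), a two-sided exact permutation test gave p = 0.1, the lowest value possible with 3 libraries a group, which says no more than that the libraries did not overlap. The size factor of a library cancels in this ratio, but the exon lengths used (5015 bases for CYP26B1 and 2972 for CYP26A1) do not. In AM80 with inhibitors the ratio rests on 37 to 55 CYP26A1 reads per library. Whether it lies above 1 there depends on those lengths.

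**Figure D3:**
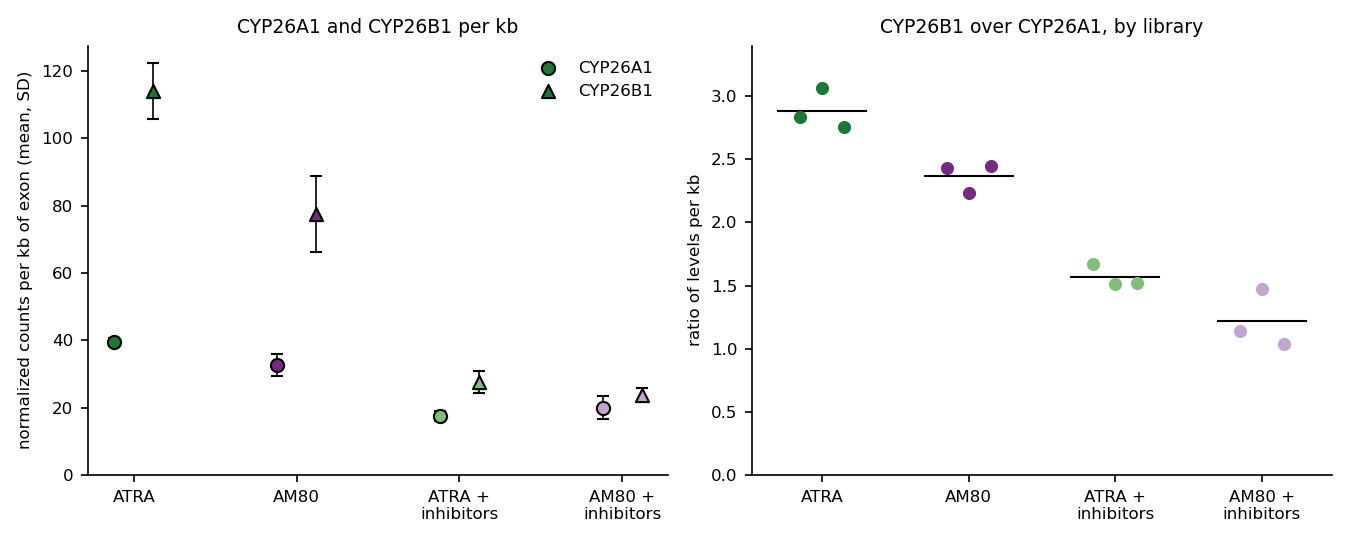
Left, normalized counts per kb of exon (y axis) for CYP26A1 (circles) and CYP26B1 (triangles), mean and SD over 3 libraries; right, the ratio of CYP26B1 to CYP26A1 per kb in each library (points) with the group mean (line). The mean ratio goes from 2.88 with ATRA to 1.22 with AM80 and inhibitors.

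AM80 and ATRA were given at the same dose and time, so the 2 retinoids were compared directly, once alone and once with inhibitors. Alone, 0 of the 8 genes differed by the test, where 0.0478% of all tested genes did (0.0273% higher and 0.0205% lower in AM80). The lowest adjusted p was that of CYP26B1 (0.253 from limma, unadjusted p = 0.0201), the only one of the 8 with an unadjusted p under 0.05. CYP26B1 had a log2 difference of -0.57 (interval -1.03 to -0.10), that is, AM80 gave 67.6% of the ATRA level. By edgeR its adjusted p was 0.0351 and by DESeq2 0.00359, with log2 differences of -0.55 and -0.56 that stay under the fold limit. Without AM80 replicate 2, which was lowest in CYP26B1 among the AM80 libraries and deepest of all, the difference was -0.44. Without untreated replicate 4, the only untreated library with a CYP26B1 read, the adjusted p was 0.0322 from limma at the same difference.

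For CYP26A1 the difference was -0.28 (interval -0.69 to 0.12), for STRA6 -0.32 (interval -0.92 to 0.27) and for DHRS3 0.05 (interval -0.25 to 0.35). The libraries of the 2 groups did not overlap for 4 of the 8 genes, with CYP26A1, CYP26B1 and STRA6 lower and DHRS9 higher in AM80, where 20.2% of all tested genes did not overlap, 9.45% lower and 10.8% higher. RDH10, RDH11, DHRS9 and CRABP2 had differences between -0.15 and 0.09. The intervals of DHRS3, DHRS9, RDH10 and RDH11 lay inside the 1.5-fold limit on both sides, whereas those of CYP26A1, CYP26B1, STRA6 and CRABP2 reached beyond it.

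With inhibitors, 0 of the 8 genes differed between the retinoids by limma, where 0.00% of all tested genes did, and 0 had an unadjusted p under 0.05. edgeR and DESeq2 also called 0. CYP26B1 had a log2 difference of -0.20 (interval -0.66 to 0.27), CYP26A1 0.18 (interval -0.22 to 0.59), STRA6 0.33 (interval -0.27 to 0.93) and DHRS3 0.07 (interval -0.23 to 0.38). Only RDH10 had libraries that did not overlap, higher in AM80, where 30.2% of all tested genes did not overlap and 16.4% were higher. Whether the inhibitors acted differently beside AM80 than beside ATRA was tested as an interaction, in which 0 of the 8 genes passed by limma, edgeR or DESeq2, 0.00% of all tested genes passed by limma, and 0 of the 8 had an unadjusted p under 0.05. The interaction was 0.66 for STRA6 (interval -0.19 to 1.501), 0.46 for CYP26A1 (interval -0.11 to 1.03) and 0.37 for CYP26B1 (interval -0.29 to 1.03), each as a log2 difference.

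**Figure D4:**
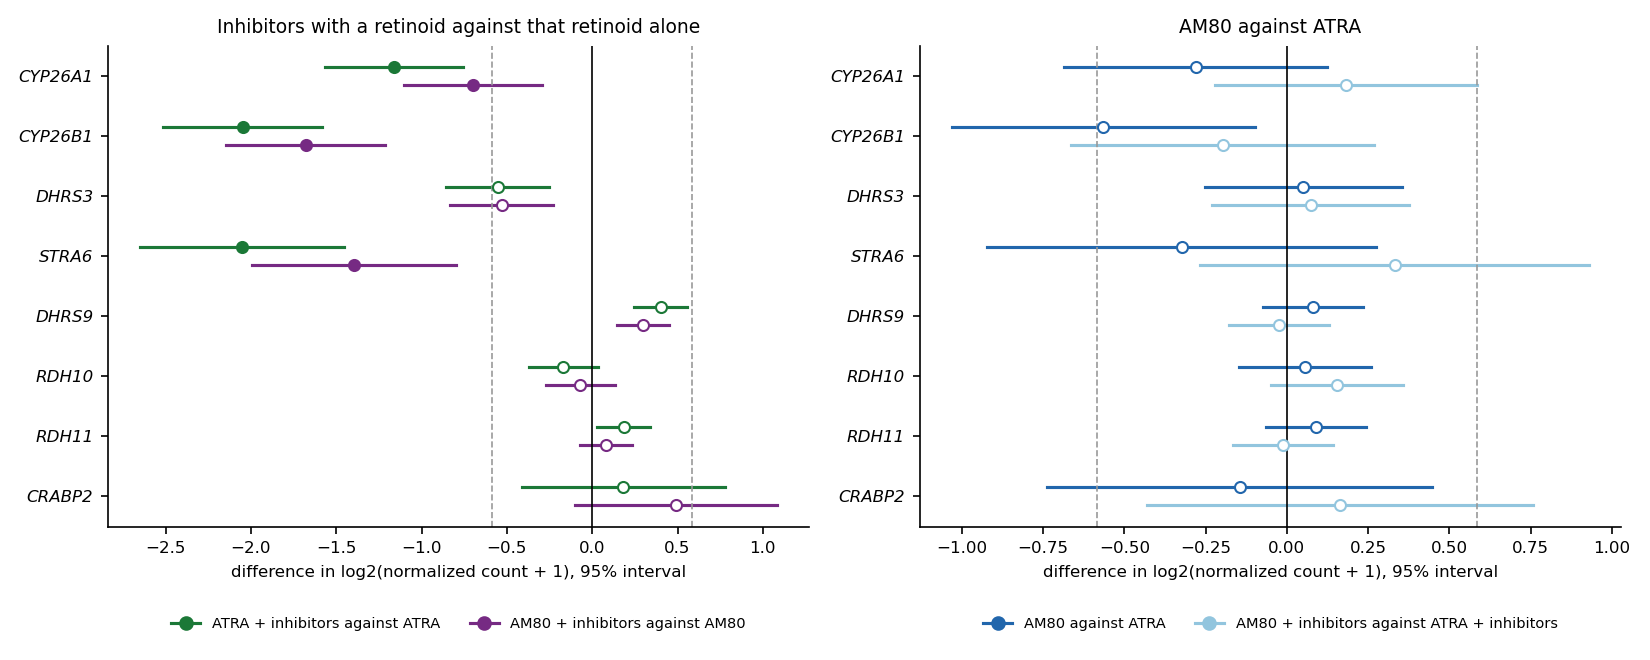
Differences in log2(normalized count + 1) with 95% intervals (x axis) for the 8 tested genes; left, inhibitors with a retinoid against that retinoid; right, AM80 against ATRA. Filled points passed the test, dashed lines mark a 1.5-fold difference, and the filled points are CYP26A1, CYP26B1 and STRA6 on the left.

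Other genes of retinoid metabolism were counted from a list of 37 genes, of which 17 passed the filter. Of the 20 others, 14 were at the floor in every group and 7 of these had no read in any library, among them RPE65, TTR and BCO1. With ATRA, 2 genes rose and 2 fell (23.5% of the 17, beside 9.45% of all tested genes), and with AM80, 2 rose and 1 fell (17.6%, beside 10.2%). AKR1C3, an aldo-keto reductase that can reduce retinal, rose from 60.3 ± 12.2 normalized counts (SD, n = 4) to 146 ± 14.8 with ATRA and 164 ± 23.7 with AM80 (SD, n = 3 each). RBP4, the retinol carrier of the blood, rose from 15.3 ± 4.19 to 37.2 ± 4.405 and 45.2 ± 9.47. ALDH1A3, which makes retinoic acid, fell from 21.3 ± 5.40 to 9.33 ± 1.99 and 8.95 ± 3.97. It averaged 12.3 normalized counts across all libraries, with treated group means between 8.31 and 10.8. ALDH1A3 thus passed the filter only through untreated libraries, and nothing is read from shares that count it. Its relative ALDH1A1 fell from 72.2 ± 7.28 to 34.9 ± 6.55 with ATRA, while with AM80 it had 55.0 ± 7.47 and did not pass. The difference of AM80 from ATRA in ALDH1A1 did not pass either (log2 difference 0.65, adjusted p = 0.09997 from limma).

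With inhibitors, 3 genes of the list rose and 5 fell against untreated cells, for each retinoid (47.1% of the 17, beside 29.1% of all tested genes for ATRA and 26.0% for AM80). AKR1C3 rose to 299 ± 25.5 with ATRA and 312 ± 52.2 with AM80 (SD, n = 3 each). RBP4 rose by 0.75 with ATRA and 1.26 with AM80 on the log2 scale. BCO2, a carotenoid-cleaving enzyme that passed the filter only through treated libraries, rose from 7.49 ± 3.65 to 30.1 ± 0.467 and 29.9 ± 3.17. RDH13 fell by 1.32 on the log2 scale with ATRA and by 0.95 with AM80. ALDH1A3, which passed the filter only through untreated libraries, fell by 0.91 and 1.22. LIPE, a lipase that can release stored retinyl esters, was the third with ATRA and fell from 38.3 ± 8.26 to 21.3 ± 1.60. RDH14 was the third with AM80 and fell by 0.83 on the log2 scale. Against the retinoid alone, 2 rose and 3 fell beside ATRA (29.4%, beside 19.5% of all tested genes), and 2 rose and 1 fell beside AM80 (17.6%, beside 15.7%). AKR1C3 and BCO2 were the 2 that rose in both cases, by 1.02 and 1.30 beside ATRA and by 0.92 and 1.68 beside AM80 on the log2 scale. RDH13 (-0.97), LIPE (-0.89) and RBP5 (-0.67) fell beside ATRA, and RDH14 (-0.76) fell beside AM80. In the direct comparisons of the retinoids and in the interaction, 0 of the 17 genes passed. The median log2 difference of the 17 genes lay between -0.25 and 0.0037 in these 6 comparisons, and that of all tested genes between -0.020 and -0.0029.

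**Figure D5:**
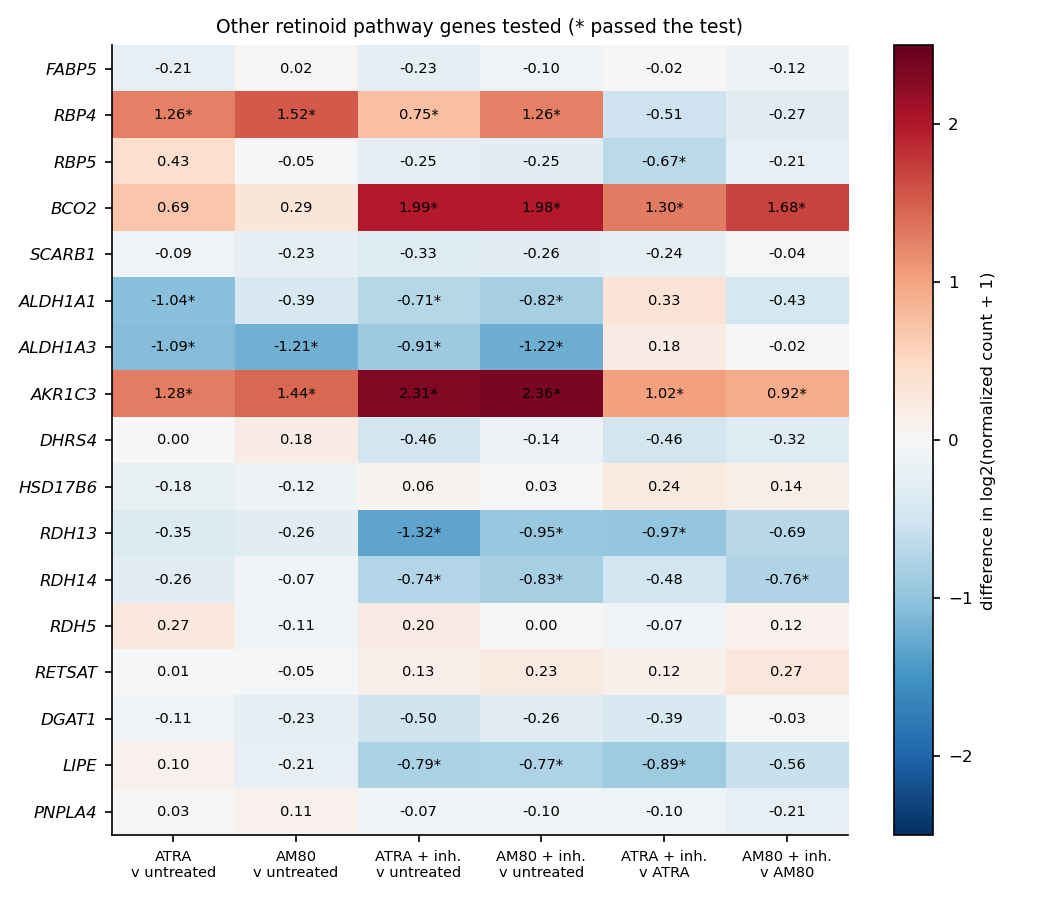
Differences in log2(normalized count + 1) (cell text and color) of the 17 other retinoid pathway genes that passed the filter (rows) in 6 comparisons (columns); asterisks mark genes that passed the test. AKR1C3 carries an asterisk in all 6 columns, and ALDH1A3, which passed the filter only through untreated libraries, in the 4 columns against untreated cells.

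The genes whose 5 group means were most like those of each raised gene were sought among all tested genes, as the root mean square difference of the centred group means on the log2 scale. For STRA6 they were PIM1 (0.212), a kinase, SIGLEC16 (0.216) and NGFR (0.221). PIM1 had 180 normalized counts in untreated cells, 705 and 683 with ATRA and AM80, and 181 and 185 with inhibitors, so its inhibitor groups lay close to untreated cells. For DHRS3 they were TGM2 (0.194), CYP26A1 (0.212) and ENSG00000288927.2 (0.259), which has no symbol. TGM2, a transglutaminase, had mean normalized counts of 84.1 in untreated cells, 10910 with ATRA and 9730 with AM80, and 6357 and 6414 in their inhibitor groups. CYP26A1 and CYP26B1 had at most 1 untreated read in a library, and ENSG00000288927.2 averaged 0 normalized counts in untreated cells. Their untreated log2 values, and with them any distance to or from these genes, are set by the pseudocount. With a pseudocount of 1 the nearest to CYP26A1 were HIC1, ENSG00000288927.2 and TGM2 and the nearest to CYP26B1 were HIC1, TGM2 and CYP26A1, and no likeness is read from these.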

How the data were processed

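RNA was sequenced from 16 libraries of OCI-AML3 cells in 5 groups taken from the labels. The submitters' processing notes name FastQC, cutadapt, STAR, featureCounts and DESeq2. The genome build, annotation release and strand setting are not given in the sources used here, and the labels and the methods name different extraction and library kits. The deposited values are a signal: read counts per gene that the authors divided by the DESeq2 size factor of each library. Whole reads were recovered for 100% of values within a tolerance of 0.01 reads, and size factors recomputed from them matched the recovered ones. Libraries held between 11963898 and 33789718 reads, and 24677 of 62700 genes had no read. All 18 replicate pairs differed by more than counting noise (chi-square per degree of freedom 2.75 to 25.9). Pairs with untreated replicate 4 gave 16.0, 23.4 and 23.3, and pairs with AM80 replicate 2 gave 17.2 and 25.9. The highest value among the remaining pairs was 6.23.

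Genes that averaged 10 or more normalized counts were tested in 9 comparisons with limma 3.58.1 (trend, R 4.3.3) on log2(normalized count + 1), in 1 fit of all groups, with Benjamini-Hochberg adjustment within each comparison. Calls needed an adjusted p under 0.05 and a fold above 1.5. A gene at 3 reads or fewer in every library of a group was at the floor, and bounds against untreated cells used 3 reads over the group. Intervals are 95%, and those on reads cover counting error only. The script was tested on simulated data. Alternatives were pseudocounts of 0.5 and 5, no filter and a mean of 50, quantile and total-read scaling, a fit of only the groups compared, a replicate block, edgeR 4.0.16 and DESeq2 1.42.0 on the recovered reads, other call rules, and leaving out each library. Genes of the pathway list were named as the 3 largest rises and falls called in each comparison, and the 3 nearest genes of each raised gene were named. Positions and exon lengths came from GENCODE 29 (GRCh38), matched by gene identifier, and promoters from RefSeq (GRCh38.p14). The genes and lists were chosen with earlier results of these data known. A result on 1 of the cell type marker lists is not reported here.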

Additional observations from a re-analysis of the deposited data

Results flagged for a closer look

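CYP26B1 in untreated replicate 4 stood apart from the other untreated libraries, with 1.11 normalized counts, which is 1 read, where the other 3 had 0. With the other 3 values at 0, the gap to the rest is the whole range of the group (Dixon ratio 1) whatever the size of this value, so the mark says only that 1 read was counted.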

How the results depend on the processing

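With no limit on the fold, 5 of the 8 genes were called for ATRA with inhibitors against untreated cells, 6 for ATRA with inhibitors against ATRA and 5 for AM80 with inhibitors against AM80. Leaving out 1 library each gave 4 to 4 calls for ATRA and for AM80 against untreated cells, 3 to 4 with inhibitors for either retinoid, 3 to 4 for ATRA with inhibitors against ATRA, 3 to 3 for AM80 with inhibitors against AM80 and 0 to 0 in the other 3 comparisons. Of 846 values under other settings, 809 kept their direction and side of the threshold, and of 1152 with a library left out, 1129 did.

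Quantile normalization turned the sign for CRABP2 with ATRA (-0.17), DHRS9 in both inhibitor groups against untreated cells (ATRA -0.11, AM80 -0.14), and RDH10 on adding inhibitors to AM80 (0.048). Scaling to total reads, which put the median of all tested genes at -0.186 to -0.133 in the 4 comparisons of an inhibitor group with untreated cells or with its retinoid, turned DHRS9 in the same groups (ATRA -0.069, AM80 -0.13), RDH11 on adding inhibitors to AM80 (-0.042), and DHRS3 (-0.0087) and RDH10 (-0.0042) for AM80 against ATRA. edgeR turned DHRS3 in the interaction (-0.0058). With a library left out, the sign turned within -0.16 to 0.085 for CRABP2 with AM80, -0.0073 to 0.70 for STRA6 with ATRA and inhibitors, and -0.086 to 0.094 for DHRS3 in the interaction. For AM80 against ATRA, both with inhibitors, it turned within -0.035 to 0.14 for DHRS3, -0.077 to 0.034 for DHRS9, -0.041 to 0.014 for RDH11 and -0.047 to 0.66 for STRA6. None of these values passed the test except STRA6 at 0.70, and the cause was not tested.

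The replicate block changed no count of these genes (4, 4, 3, 4, 3 and 3 in the 6 comparisons with calls). Libraries of the same number did not deviate together (30 pairs, r between -0.112 and 0.187, 4 above 0.1), so the numbers were not read as pairs. CYP26A1 and CYP26B1 at or near 0 reads in untreated cells have no fitted fold that depth can settle, and CRABP2, ALDH1A2 and CRABP1 had too few reads for small changes to show.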
